A study of Mus musculus with 36 samples.

Results

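Tight junctions and Jam2 were followed in mouse jejunal organoids through 10 genes, listed by symbol and matched by Ensembl identifier to 10 of the 52636 genes in the counts. They are Jam2, F11r, Cldn2, Cldn3, Cldn4, Cldn7, Cldn15, Cldn23, Ocln and Tjp1. Jam2 was put on the list because its level was higher with Wnt5a, so its values in the Wnt5a conditions and against complete media are given as a description without a test. Every gene of the list had a mean above 0.5 CPM (counts scaled to library size), the limit below which a gene is written here as not detected, and all 10 were among the 15497 genes tested.

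Organoids are epithelial cultures grown in a gel from isolated crypts, here from the jejunum of C57BL/6 mice. RNA was sequenced from 6 conditions with 6 libraries each, 36 in all. Complete media + IgG was the organoid growth medium with a control antibody. QCM + IgG and SCM + IgG were organoids given medium conditioned by quiescent or by senescent mouse embryonic fibroblasts, mixed with growth medium, and SCM + anti-Ptk7 replaced the control antibody by one against Ptk7, a pseudokinase receptor of noncanonical Wnt signaling. Wnt5a + IgG and Wnt5a + anti-Ptk7 were organoids given the Wnt5a ligand with either antibody. All organoids thus received an antibody, none carried a transgene or deletion by the labels, and anti-Ptk7 in complete media or in QCM was not analysed here. The crypts came from 6 mice, and the labels do not tie a replicate number to a mouse, so p values measure the spread between these libraries. The organoids are grown from epithelium without the fibroblasts, vessels and immune cells of the gut wall, and the fibroblasts acted through their medium alone.

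Libraries held between 9581589 and 21029769 counts (median 13490071). Over 90 pairs of replicates the chi-square per gene of their counts ran from 7.60 to 88.6, so no library was a copy of another of its condition. The summed level of 8 epithelial markers (Epcam, Cdh1, Krt8, Krt18, Krt19, Vil1, Cdx1 and Cdx2) lay between 8920 and 12000 CPM in complete media and between 15100 and 27700 CPM in Wnt5a + IgG. In that comparison 4 of the 8 rose, against 8.29% of all genes tested, namely Krt8 (log2 fold change 1.25), Krt18 (1.22), Krt19 (1.17) and Cdh1 (0.68). The transcription factors Cdx1 (−0.50, edgeR adjusted p = 9.57e-05, below the fold cutoff used here) and Cdx2 (−0.20, 0.505) lay lower. In SCM + IgG the summed level lay between 12900 and 19900 CPM. There 3 of the 8 rose against complete media, where 4.96% of all genes rose. The part of these markers in the results below was not tested. Of 10 endothelial markers, 9 were below 0.5 CPM on average and Kdr and Emcn had no count in any library. Of 9 fibroblast markers only Pdgfrb was detected (2.30 CPM), and Col3a1, Dcn and Thy1 had no count. Of 6 immune markers Cd68 (1.24 CPM) and Itgam (1.1 CPM) were detected, and Adgre1 had no count. In bulk RNA, fewer cells of a type and less RNA per cell cannot be told apart.

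Tight junctions seal the space between neighbouring epithelial cells near their apical side and set which ions and solutes pass between them. Their strands are built by claudins, of which some seal and others form pores, together with tetraspan proteins such as occludin. Junctional adhesion molecules are immunoglobulin-like proteins that join cells at the same sites, and scaffold proteins such as ZO-1 tie the strands to the actin cytoskeleton. In the gut, the mix of claudins shifts from crypt to villus.

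By role, the list holds 2 adhesion molecules, 6 claudins, 1 tetraspan protein and 1 scaffold, with positions on GRCm38. Jam2 (JAM-B, ENSMUSG00000053062, chr16:84774123-84825928) is best known from endothelial junctions and binds Jam3, and F11r (JAM-A, ENSMUSG00000038235, chr1:171437535-171464603) is the adhesion molecule of epithelial tight junctions. The sealing claudins are Cldn3 (ENSMUSG00000070473, chr5:134986214-134987472) and Cldn4 (ENSMUSG00000047501, chr5:134945119-134946934). Cldn7 (ENSMUSG00000018569, chr11:69964779-69967885) is an abundant claudin of the gut that also lies along the lateral membrane, and Cldn23 (ENSMUSG00000055976, chr8:35824712-35826559) is a further claudin of differentiated epithelium. Cldn2 (ENSMUSG00000047230, chrX:139800828-139811386) forms pores for small cations and water, and Cldn15 (ENSMUSG00000001739, chr5:136966616-136975858) forms sodium pores of the small intestine. Ocln (occludin, ENSMUSG00000021638, chr13:100496507-100552718) is the tetraspan strand protein and Tjp1 (ZO-1, ENSMUSG00000030516, chr7:65296165-65527781) the scaffold. All are protein-coding genes. Cldn3 overlaps the antisense gene Wbscr25, which held 0.781 CPM on average. Whether the counting used strand is not given in the sources used here, so that share of the reads cannot be told apart.

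The 250 bases before the RefSeq start sites of F11r, Cldn4, Cldn15 and Cldn2 are shown because their windows hold letters bound by AP-1 or TEAD factors and because these 4 genes passed in at least 1 comparison below. The windows are F11r chr1:171437311-171437560 (plus strand), Cldn4 chr5:134946935-134947184 (minus strand), Cldn15 chr5:136967619-136967868 (plus strand) and Cldn2 chrX:139800558-139800807 (plus strand) of GRCm38.p6, written 5′ to 3′ on the strand of the gene. Capitals mark the AP-1 motif, TGACTCA or its reverse complement TGAGTCA, and the TEAD motif, GGAATG or its reverse complement CATTCC. RefSeq start sites can differ from those of the annotation used for the gene positions, and the Cldn15 window lies inside the longer gene model given above.
F11r: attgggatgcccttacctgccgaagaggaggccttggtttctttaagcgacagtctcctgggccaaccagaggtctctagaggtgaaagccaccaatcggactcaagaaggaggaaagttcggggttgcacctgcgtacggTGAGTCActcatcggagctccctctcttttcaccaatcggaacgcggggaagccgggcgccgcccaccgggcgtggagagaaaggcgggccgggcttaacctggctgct
Cldn4: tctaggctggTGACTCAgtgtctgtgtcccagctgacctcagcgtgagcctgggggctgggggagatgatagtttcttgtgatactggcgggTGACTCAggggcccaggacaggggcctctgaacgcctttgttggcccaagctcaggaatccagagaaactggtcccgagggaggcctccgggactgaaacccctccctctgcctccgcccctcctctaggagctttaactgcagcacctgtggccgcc
Cldn15: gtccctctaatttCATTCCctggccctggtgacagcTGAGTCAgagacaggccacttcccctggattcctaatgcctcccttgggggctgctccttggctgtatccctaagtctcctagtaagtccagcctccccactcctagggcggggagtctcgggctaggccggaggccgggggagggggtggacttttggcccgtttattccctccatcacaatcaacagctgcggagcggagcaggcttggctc
Cldn2: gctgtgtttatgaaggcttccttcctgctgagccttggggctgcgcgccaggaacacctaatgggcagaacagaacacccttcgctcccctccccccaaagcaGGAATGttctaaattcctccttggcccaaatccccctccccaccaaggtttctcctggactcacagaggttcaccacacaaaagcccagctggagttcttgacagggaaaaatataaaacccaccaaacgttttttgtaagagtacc
The AP-1 letters began 109 bases before the F11r start, 240 and 158 bases before the Cldn4 start, and 214 bases before the Cldn15 start. The TEAD letters began 237 bases before the Cldn15 start and 147 bases before the Cldn2 start, and no match of one motif overlapped one of the other. Among 32851 promoters of the same length, 4.46% held the AP-1 letters and 12.6% the TEAD letters. The 8 listed genes with a promoter entry have 10 promoters, of which 3 held AP-1 letters and 3 TEAD letters, the last being 1 of the 2 of Cldn7 at 70 bases. Jam2 and Cldn23 had no entry. A match of letters is a description of the window and not a binding site.

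Levels were set side by side per kilobase of coding sequence, since the counts are described as reads within it. Averaged over all libraries, Cldn7 was the most abundant gene of the list at 2580 CPM per coding kb, followed by Cldn3 at 1030, Cldn4 at 771, Cldn2 at 680, Cldn15 at 387 and F11r at 307. Ocln (172), Cldn23 (32.7), Tjp1 (14.2) and Jam2 (7.14) came last. Cldn7 was above Cldn3, F11r above Ocln, Ocln above Cldn23 and Cldn23 above Tjp1 in 36 of 36 libraries.

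Between these fixed places the order of the means depended on the condition. Cldn4 lay at 241 CPM per coding kb in complete media, below Cldn2 (508) and Cldn15 (476) in 6 of 6 libraries, and at 1060 in Wnt5a + IgG, above both in 6 of 6. Its mean there was also above that of Cldn3 (927), but it exceeded Cldn3 in only 2 of 6 libraries. The pore claudins Cldn2 and Cldn15 were close in complete media, where Cldn2 was the higher in 2 of 6 libraries, and in QCM + IgG Cldn2 was the higher in 5 of 6. In the SCM and Wnt5a conditions, with either antibody, Cldn2 was above Cldn15 in 6 of 6. The order of such neighbours depends on the length used. Per kilobase of exon, Cldn2 lay below Cldn15 in complete media (105 and 153) and in QCM + IgG (113 and 148) and was above it in 5 of 6 libraries of SCM + IgG and 3 of 6 of SCM + anti-Ptk7, and Cldn4 lay below Cldn3 in Wnt5a + IgG (367 and 484).

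The genes differed widely in their spread between replicates. Cldn7 varied least between replicates, with a coefficient of variation between 2.40% and 7.43% over the conditions. Ocln (4.45% to 12.8%) and Cldn3 (5.92% to 15.7%) were also steady. Cldn4 reached 80.2%, with a median of 32.7% over the conditions, although it was read with at least 1062 counts in every library. Jam2 was the most variable gene at 52.8% to 114%, in part on very few counts, since its 6 complete media libraries held 19 counts in sum.

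**Figure D1:**
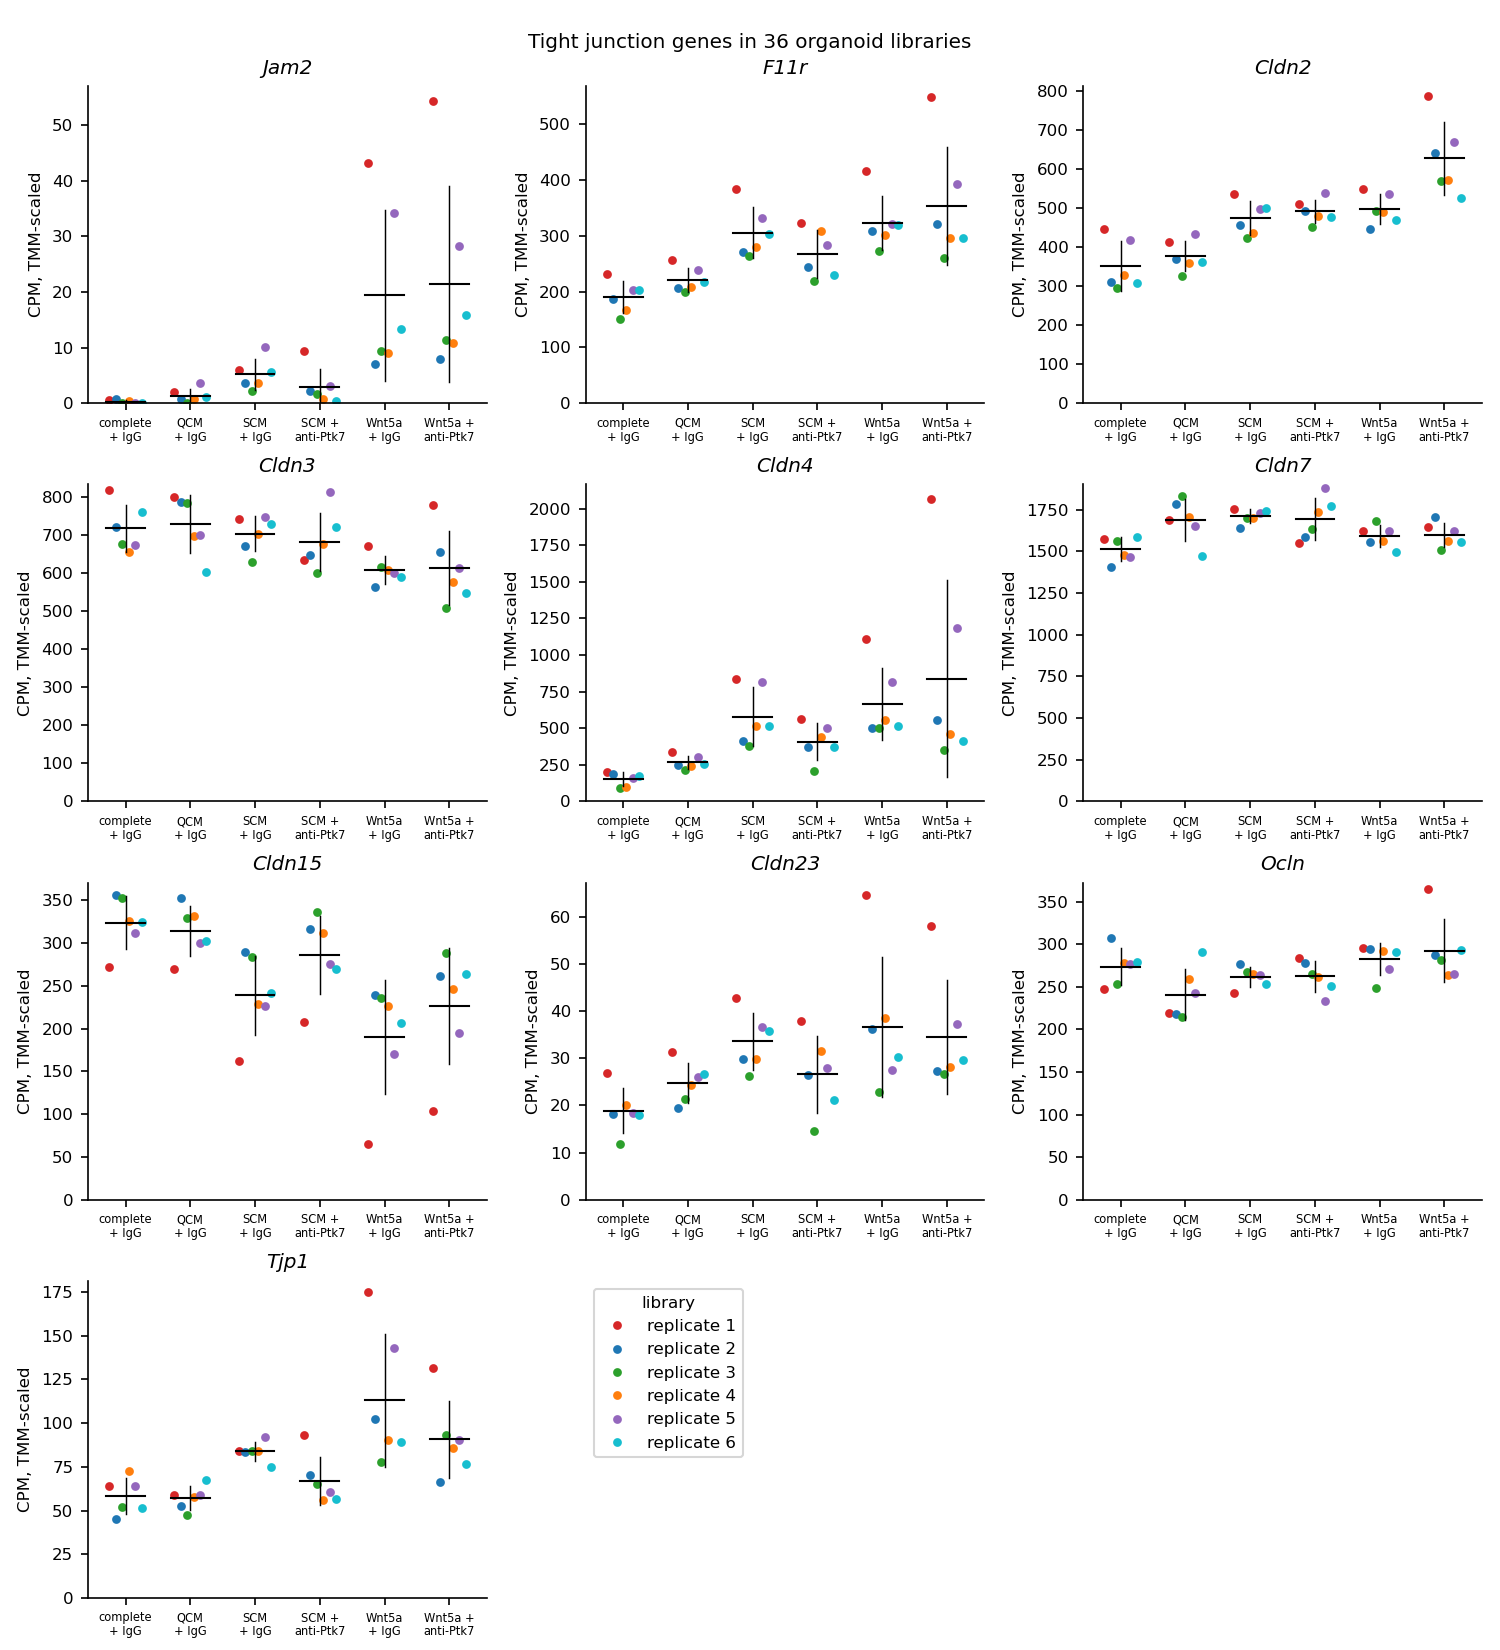
CPM of each of the 10 genes in the 36 libraries, 1 panel per gene with its own linear axis from 0, by condition; points are libraries coloured by replicate number, horizontal bars are means and vertical lines are ± 1 SD (n = 6). Cldn4 lies between 88.6 and 204 CPM in complete media and between 498 and 1107 CPM in Wnt5a + IgG, Cldn15 lies lower in Wnt5a + IgG than in complete media, and the highest Jam2 libraries with Wnt5a are replicates 1 and 5.

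QCM, SCM and Wnt5a, each with IgG, were compared with complete media, and these comparisons share the complete media libraries. Fold changes come from a quasi-likelihood test in edgeR over all 15497 genes, in which a gene passed at a Benjamini-Hochberg adjusted p under 0.05 together with more than 1.5-fold change. Since Jam2 was picked on these contrasts, counts are given for the other 9 genes.

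Wnt5a + IgG against complete media gave the most genes that passed, 5 of 9 against 10.2% of all genes. F11r, Cldn4, Cldn23 and Tjp1 rose, 4 of 9 against a background of 8.29% of all genes that passed upward, and Cldn15 fell, against 1.88% of all genes downward. Cldn4, the sealing claudin, had the largest change. Cldn4 lay at 88.6 CPM at the lowest, 167 at the median and 204 at the highest in complete media, and at 498, 538 and 1107 CPM in Wnt5a + IgG. No library of one condition reached those of the other. Its level was 4.39-fold higher (log2 fold change 2.13 ± 0.33 SE, n = 6 per condition, edgeR adjusted p = 1.71e-05).

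The scaffold gene Tjp1 went from 45.4, 58.0 and 72.6 CPM (lowest, median and highest) in complete media to 77.7, 96.5 and 175 CPM in Wnt5a + IgG. The libraries did not overlap, and the log2 fold change was 0.95 ± 0.16 (SE; edgeR adjusted p = 5.78e-05). F11r went from 151, 195 and 232 CPM to 273, 313 and 415 CPM, again without overlap. Its log2 fold change was 0.76 ± 0.14 (edgeR adjusted p = 0.000127). The low claudin Cldn23 went from 11.8, 18.4 and 26.9 CPM to 22.8, 33.3 and 64.7 CPM, and the conditions overlapped. Its log2 fold change was 0.95 ± 0.23 (edgeR adjusted p = 0.00209).

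The pore claudin Cldn15 was the only gene of the list that fell. It lay at 273, 325 and 356 CPM in complete media and at 64.8, 216 and 239 CPM in Wnt5a + IgG, with no overlap. The log2 fold change was −0.77 ± 0.20 (SE; edgeR adjusted p = 0.0059), 1.70-fold lower. Its lowest library was replicate 1 at 64.8 CPM, and the other libraries of Wnt5a + IgG lay between 170 and 239 CPM.

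The other pore claudin, Cldn2, had an edgeR adjusted p of 0.000242 at a log2 fold change of 0.50, which is below the fold cutoff. It passed with a log2 fold change of 0.60 when complete media replicate 1 was left out. Cldn3 had a log2 fold change of −0.24 with an interval of −0.41 to −0.07 (edgeR adjusted p = 0.0396), also below the fold cutoff. The intervals of Cldn7 (−0.03 to 0.18 around 0.07) and Ocln (−0.11 to 0.20 around 0.05) held 0, with edgeR adjusted p values of 0.339 and 0.731. Over the 9 genes the median log2 fold change was 0.50, against 0.0051 over all genes tested. Libraries did not overlap in 4 of 9 genes, against 11.7% of all genes. Tested against a change of more than 1.5-fold itself (glmTreat of edgeR), Cldn4 was the 1 gene of the 9 that passed in this comparison, in SCM against complete media and in Wnt5a + anti-Ptk7 against QCM.

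SCM + IgG was compared with the same complete media libraries. F11r, Cldn4 and Cldn23 rose, 3 of 9 against 4.96% of all genes upward, and 0 fell, against 1.12% of all genes downward. Cldn4 lay at 377, 515 and 837 CPM in SCM + IgG, 3.81-fold above complete media (log2 fold change 1.93 ± 0.33 SE, edgeR adjusted p = 0.000123). F11r lay at 263, 292 and 385 CPM, with a log2 fold change of 0.68 ± 0.14 (edgeR adjusted p = 0.000935). Neither overlapped complete media. Cldn23 lay at 26.4, 32.9 and 42.9 CPM, with a log2 fold change of 0.83 ± 0.23 (edgeR adjusted p = 0.0127), and overlapped it.

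Markers of enterocytes and of the crypt base were read in the same comparisons. Of 8 enterocyte markers 5 rose in SCM, 4 in Wnt5a and 3 in QCM, against 4.96% and 8.29% of all genes upward and, in QCM, 0.374% in either direction. Among those that rose in SCM and in Wnt5a were Krt20, a keratin of mature enterocytes (log2 fold change 1.84 in SCM and 2.26 in Wnt5a), the brush border phosphatase Alpi (1.25 and 1.02) and the fatty acid carrier Fabp1 (1.09 and 0.68). Their summed level lay between 3390 and 4730 CPM in complete media, 4720 and 5850 CPM in SCM + IgG and 4090 and 5250 CPM in Wnt5a + IgG. Of 6 crypt base markers 1 fell in SCM and in Wnt5a, Smoc2 (−0.77 and −0.67), against 1.12% and 1.88% of all genes downward, and 0 rose. Their sums were 2920 to 4010, 2220 to 3740 and 2140 to 3650 CPM in the same conditions. In SCM against QCM 0 of the 8 enterocyte and 0 of the 6 crypt base markers passed, against 0.903% of all genes. No marker of either list was at 0, and their part in the claudin results was not tested.

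Below the fold cutoff were Tjp1 (log2 fold change 0.52, edgeR adjusted p = 0.0293), Cldn2 (0.44, 0.00211) and Cldn7 (0.18, 0.0176). Tjp1 lay at 75.2, 83.9 and 92.1 CPM in SCM + IgG without overlap with complete media, and it passed when complete media replicate 4 was left out (log2 fold change 0.59, adjusted p = 0.0244). Cldn15 was lower at −0.44 with an adjusted p of 0.168. In SCM the libraries of 4 of 9 genes did not overlap those of complete media, against 6.29% of all genes, and the median log2 fold change was 0.44 against 0.0068 over all genes.

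QCM + IgG against complete media gave no gene of the list that passed, 0 of 9 against 0.374% of all genes. At an unadjusted p under 0.05 there were 3 genes (Cldn4, Cldn7 and Ocln), against 1858 of all 15497 tested. Voom with limma and DESeq2 also passed 0. Cldn4 lay at 216, 253 and 340 CPM, all above the highest complete media library, with a log2 fold change of 0.82 and an edgeR adjusted p of 0.267. Non-overlap of this kind was seen in 1.74% of all genes.

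**Figure D2:**
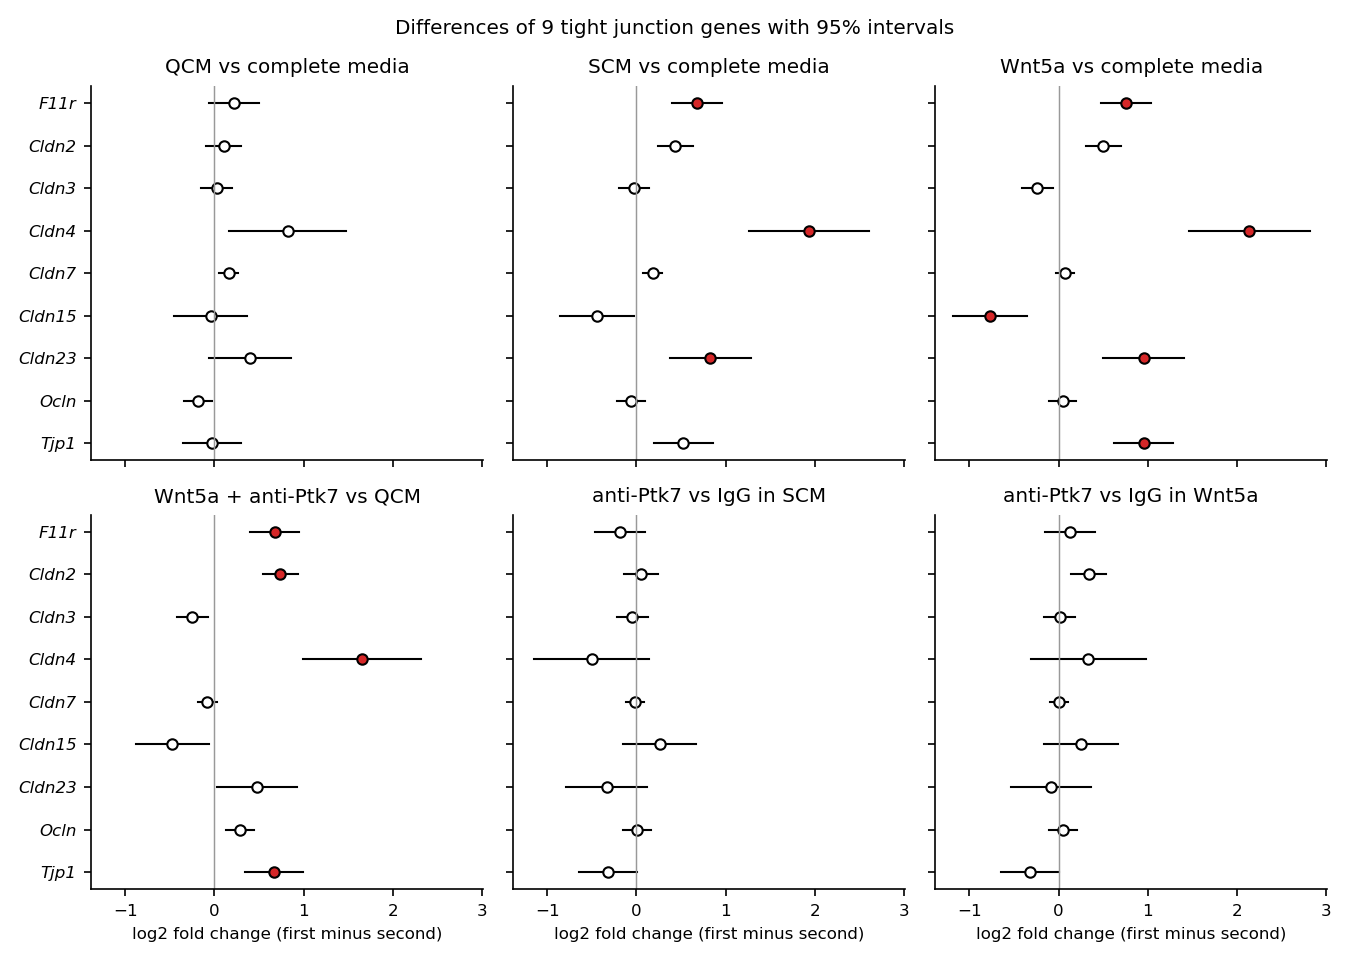
Log2 fold change (x axis, first condition minus second) of the 9 genes other than Jam2 in 6 comparisons, with 95% intervals from edgeR as lines and filled points for genes that passed. Cldn4 has the largest value in both comparisons with filled points against complete media (1.93 in SCM and 2.13 in Wnt5a), Cldn15 is the only filled point below 0, and neither antibody panel holds a filled point.

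SCM + IgG against QCM + IgG addresses what the senescent medium adds to a fibroblast medium. It gave 0 of 9 genes that passed, against 0.903% of all genes. At an unadjusted p under 0.05 there were 4, against 2633 of all 15497 genes. The 4 were F11r (log2 fold change 0.47, edgeR adjusted p = 0.0662), Cldn4 (1.11, 0.0612), Tjp1 (0.55, 0.0635) and Cldn2 (0.33, 0.0591), of which Cldn4 alone exceeded the fold cutoff. The libraries of F11r, Cldn4 and Tjp1 did not overlap, against 2.19% of all genes. Cldn4 passed by voom with quantile normalization and by DESeq2, and in edgeR without Wnt5a + IgG replicate 1 (1.13, adjusted p = 0.0451) or Wnt5a + anti-Ptk7 replicate 1 (1.11, 0.0177). Tjp1 passed without QCM + IgG replicate 6 (0.63, 0.0435).

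Wnt5a + IgG against SCM + IgG gave 0 of 9, against 0.69% of all genes, and 0 by voom or DESeq2. An unadjusted p under 0.05 was reached by 3, against 2936 of all 15497 genes. Those 3 were Tjp1 (log2 fold change 0.43), Cldn3 (−0.21) and Cldn7 (−0.11), with edgeR adjusted p values of 0.128, 0.158 and 0.25. The interval for Cldn4 ran from −0.44 to 0.85 around 0.20, so a difference of the size it had against complete media lies outside it. The interval for Cldn15 ran from −0.74 to 0.08.

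The anti-Ptk7 antibody was compared with IgG in each medium, to ask which differences depend on Ptk7. In SCM it gave 0 of 9 genes that passed, against 1.23% of all genes, and 0 by voom or DESeq2. Below an unadjusted p of 0.05 there were 0, against 2654 of all 15497 genes. F11r, Cldn4, Cldn23 and Tjp1 had a lower mean with the antibody, as did Cldn3 (log2 fold change −0.045) and Cldn7 (−0.016). Cldn15, Cldn2 (0.049) and Ocln (0.0035) had a higher one. Cldn4 was at −0.50 with an interval of −1.15 to 0.14, Tjp1 at −0.32 with an interval of −0.65 to 0.0032, and Cldn15 at 0.26 with an interval of −0.15 to 0.67.

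In Wnt5a it also gave 0 of 9, against 0.884% of all genes. Cldn2 had a log2 fold change of 0.34 ± 0.10 (SE, edgeR adjusted p = 0.0491), below the fold cutoff. It was the 1 listed gene at an unadjusted p under 0.05, against 2332 of all 15497 tested. Voom and DESeq2 passed 0. Cldn2 lay at 445, 491 and 548 CPM with IgG and at 526, 605 and 787 CPM with anti-Ptk7, with overlap. Cldn4 was at 0.33 here, opposite in sign to its value in SCM, and turned to −0.16 without Wnt5a + anti-Ptk7 replicate 1, a library of 2067 CPM where the other 5 lay between 353 and 1184. The difference between the antibody effects in the 2 media gave 0 genes of all tested, with 602 at an unadjusted p under 0.05 and 0 by voom or DESeq2. Cldn2 was the 1 listed gene at an unadjusted p under 0.05, with an effect 0.29 larger in Wnt5a (edgeR adjusted p = 0.999), and for Cldn4 the difference was 0.83 with an interval of −0.08 to 1.75.

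Wnt5a + anti-Ptk7 was also compared with QCM + IgG, a contrast that differs in ligand, medium and antibody. F11r, Cldn2, Cldn4 and Tjp1 rose, 4 of 9 against 8.78% of all genes upward, at log2 fold changes of 0.67, 0.74, 1.65 and 0.66. The edgeR adjusted p values were 0.000261, 5.6e-07, 0.00018 and 0.00162. The libraries of 3 of 9 genes (F11r, Cldn2 and Cldn4) did not overlap, against 15.5% of all genes. Without Wnt5a + anti-Ptk7 replicate 1, F11r (0.50) and Tjp1 (0.53) went under the fold cutoff and Cldn2 and Cldn4 passed. Against SCM + anti-Ptk7 it gave 0 of 9, against 1.53% of all genes, and 0 by voom. The count at an unadjusted p under 0.05 was 5, against 3249 of all 15497 genes. Cldn4 was at 1.04 (edgeR adjusted p = 0.055) and passed by DESeq2. It also passed in edgeR without any of SCM + anti-Ptk7 replicate 1, Wnt5a + IgG replicate 1 or Wnt5a + anti-Ptk7 replicates 2, 3, 4 or 6. Without Wnt5a + anti-Ptk7 replicate 1 it dropped to 0.54 (edgeR adjusted p = 0.411), below the fold cutoff.

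Jam2, the adhesion molecule known from endothelium, was nearly silent in complete media. Its libraries held 0, 0.220 and 0.752 CPM (lowest, median and highest), 19 counts in all, and replicates 3 and 5 had no count. A count of 0 allows up to 0.250 and 0.234 CPM in those libraries (3 counts), for counting error only. In QCM + IgG it lay at 0, 0.917 and 3.57 CPM and in SCM + IgG at 2.27, 4.63 and 10.1 CPM. In SCM + anti-Ptk7 it lay at 0.466, 1.85 and 9.32 CPM. Every SCM + IgG library was above every complete media library.

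Levels in Wnt5a + IgG were 7.07, 11.4 and 43.2 CPM, with 115 to 448 counts per library. In Wnt5a + anti-Ptk7 they were 7.88, 13.6 and 54.3 CPM. Replicates 1 and 5 were the highest in both conditions, at 43.2 and 34.3 CPM and at 54.3 and 28.2 CPM. The order of the condition means was complete media, QCM, SCM + anti-Ptk7, SCM + IgG, Wnt5a + IgG and Wnt5a + anti-Ptk7, and the libraries of neighbouring conditions in this order overlapped at every step.

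Jam2 was tested in the contrasts that hold neither complete media nor Wnt5a libraries. SCM against QCM gave a log2 fold change of 1.93 ± 0.67 (SE) with an edgeR adjusted p of 0.12 and overlapping libraries. With each library left out it ranged from 1.64 to 2.53, with edgeR adjusted p values from 0.0536 to 0.278. In a fit with a term for replicate number it passed (edgeR adjusted p = 0.00118), although the numbers were not taken as pairing the libraries. Anti-Ptk7 in SCM gave −0.82 ± 0.62 with an edgeR adjusted p of 0.54 and an interval of −2.08 to 0.45. That value moved to −1.67 (adjusted p = 0.159) without SCM + anti-Ptk7 replicate 1, the library at 9.32 CPM, and to −0.52 (0.737) without SCM + IgG replicate 5.

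Markers of other cell types that could hold Jam2 RNA were read beside it. The summed level of endothelial markers lay between 5.53 and 10 CPM in complete media and between 4.77 and 7.33 CPM in Wnt5a + IgG, nearly all of it Esam (6.77 CPM on average). Fibroblast markers summed to 0.146 to 5.69 CPM in complete media and 0.211 to 3.09 CPM in Wnt5a + IgG. Immune markers summed to 0.917 to 3.19 CPM and 1.39 to 3.08 CPM in the same conditions. Jam3, the binding partner of Jam2, was not detected (0.105 CPM on average).

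Among the genes with the most similar profiles to Jam2 over 36 libraries, by Pearson correlation of log2 CPM, were Phldb2 (0.929), Clu (0.928), Pea15a (0.923) and Vill (0.920). Their mean level climbed over the conditions too, as for Clu from 51.0 CPM in complete media to 3770 CPM in Wnt5a + IgG. Among the listed genes Cldn4 (0.872, rank 91 of the tested genes) and F11r (0.863, rank 127) came closest and Cldn15 was the most opposed (−0.73). These libraries share conditions and replicate numbers, so the values describe the profiles only.

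Libraries with the same replicate number stood on the same side of their condition mean for several of the genes. F11r, Cldn4 and Cldn23 were highest in replicate 1 in 6 of 6 conditions, and Cldn15 was lowest in replicate 1 in 6 of 6. F11r and Cldn4 were lowest in replicate 3 in 6 of 6 conditions, and Cldn23 in 5 of 6. Cldn7 was highest in replicate 1 in 1 condition and in replicate 3 in 2.

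On average replicate 1 lay above its condition mean by 0.73 on the log2 scale for Cldn4, 0.59 for Cldn23 and 0.37 for F11r, and for Cldn15 by −0.65. Against complete media, the log2 fold changes with Wnt5a were 2.13 for Cldn4, 0.95 for Cldn23, 0.76 for F11r and −0.77 for Cldn15. Over 36 libraries the deviations of F11r went with those of Cldn4 (r = 0.934) and Cldn23 (0.863) and against those of Cldn15 (−0.796). Which mouse, culture or day a number stands for is not given in the sources used here.

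**Figure D3:**
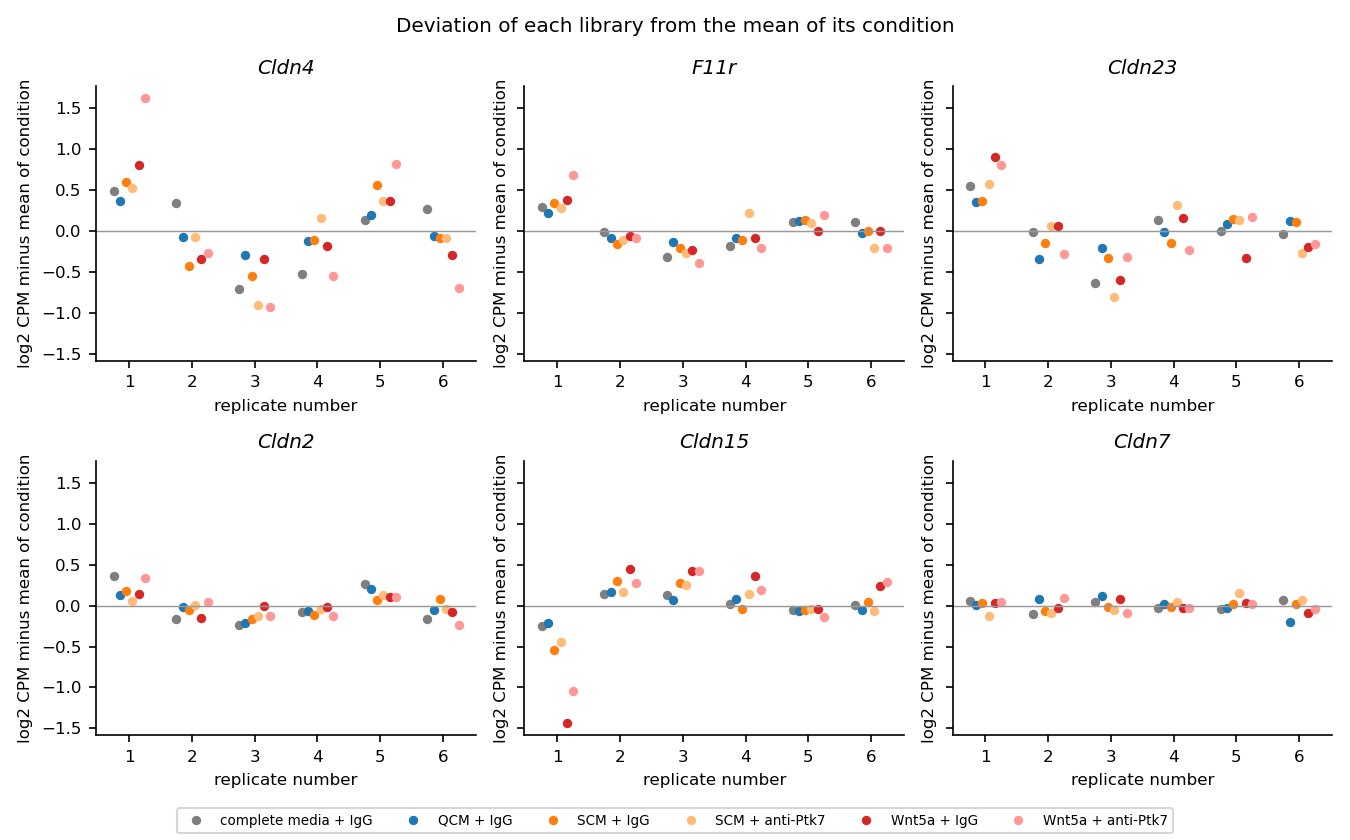
Deviation of each library from the mean of its condition in log2 CPM (y axis) by replicate number (x axis) for Cldn4, F11r, Cldn23, Cldn2, Cldn15 and Cldn7, with points coloured by condition. Cldn4, F11r and Cldn23 lie above 0 in replicate 1 in all 6 conditions, Cldn15 lies below 0 there, and Cldn7 stays between −0.194 and 0.153 in every library.

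The balance of the 2 pore claudins was read as the ratio of Cldn2 to Cldn15 CPM within each library, a description with no test. The median ratio was 0.98 in complete media and 1.14 in QCM + IgG. It was 1.98 in SCM + IgG, 1.66 in SCM + anti-Ptk7, 2.22 in Wnt5a + IgG and 2.38 in Wnt5a + anti-Ptk7. The lowest Wnt5a + IgG library (1.86) lay above the highest complete media library (1.63). Replicate 1 held the highest ratio in each condition, at 8.46 in Wnt5a + IgG and 7.56 in Wnt5a + anti-Ptk7.

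**Figure D4:**
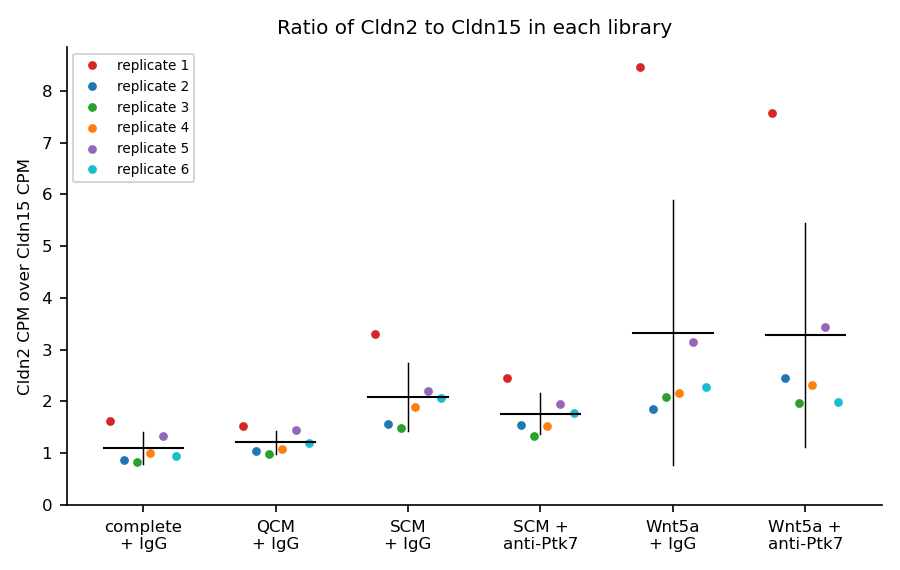
Ratio of Cldn2 CPM to Cldn15 CPM (y axis, from 0) in each of the 36 libraries by condition; points are libraries coloured by replicate number, horizontal bars are means and vertical lines are ± 1 SD (n = 6). Complete media lies between 0.834 and 1.63 and Wnt5a + IgG between 1.86 and 8.46, and replicate 1 is the highest point of every condition.

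The rest of the junction was read from 4 lists of related genes. Of 20 other claudins, 4 were detected (Cldn8, Cldn12, Cldn18 and Cldnd1), and 0 of the 4 passed in any comparison. With each library left out, up to 1 of them passed in Wnt5a against complete media and up to 2 in Wnt5a + anti-Ptk7 against QCM. Of 12 other junction membrane proteins 9 were detected. In SCM and in Wnt5a 1 of 9 rose, against 4.96% and 8.29% of all genes upward. This was Ildr1, which marks corners where 3 cells meet. Its log2 fold change was 1.20 in SCM (edgeR adjusted p = 0.0249) and 1.49 in Wnt5a (0.00263). The rise in SCM was lost without any of complete media replicates 2, 3 or 4 or SCM + IgG replicates 1 or 5, with edgeR adjusted p values up to 0.0978. Ildr1 lay at 30.6, 55.6 and 106 CPM in complete media and at 110, 147 and 314 CPM in Wnt5a + IgG. Cxadr rose in Wnt5a + anti-Ptk7 against QCM (0.65), 1 of 9 against 8.78% of all genes upward. Esam fell in Wnt5a + anti-Ptk7 against SCM + anti-Ptk7 (−0.76), 1 of 9 where 0.252% of all genes passed downward. Cxadr went under the fold cutoff (0.49) without Wnt5a + anti-Ptk7 replicate 1. Esam was lost without SCM + anti-Ptk7 replicate 4 or Wnt5a + anti-Ptk7 replicates 1, 4 or 5, with edgeR adjusted p values up to 0.133.

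Among 23 scaffold and polarity genes, 21 were detected. Against complete media 3 of 21 rose in SCM and 6 in Wnt5a, against 4.96% and 8.29% of all genes upward. In both 0 fell, against 1.12% and 1.88% of all genes downward. Without Wnt5a + IgG replicate 1 the 6 became 3, and Cgn (0.57) was among those that went under the fold cutoff. The largest were Amotl1, an angiomotin family member, at 2.96 in SCM and 3.99 in Wnt5a, and paracingulin Cgnl1 at 1.47 and 2.32, with Amotl2 at 0.84 and 1.26 and Cgn at 0.73 in Wnt5a. Cgnl1 also rose in SCM against QCM (1.15, edgeR adjusted p = 0.0431, against 0.761% of all genes upward) and in Wnt5a + anti-Ptk7 against SCM + anti-Ptk7 (1.22), where Patj rose by 0.63 and 1.28% of all genes passed upward. Cgnl1 in SCM against QCM was lost in 10 of the 36 fits that left out 1 library, with edgeR adjusted p values up to 0.131. These were the fits without complete media replicate 6, QCM + IgG replicates 2 to 6, SCM + IgG replicates 1, 5 or 6, or Wnt5a + IgG replicate 6. Against SCM + anti-Ptk7, Cgnl1 was lost without SCM + anti-Ptk7 replicates 3 or 4 or Wnt5a + anti-Ptk7 replicate 1 (adjusted p up to 0.153 in edgeR). Patj was lost there without SCM + anti-Ptk7 replicates 3 to 6 or Wnt5a + anti-Ptk7 replicates 1 or 5 (up to 0.228). Amotl2 in SCM was lost without complete media replicate 2 or SCM + IgG replicate 5 (up to 0.0771). Against QCM, Amotl1 (2.04), Cgnl1 (1.73) and Patj (0.69) rose with Wnt5a + anti-Ptk7, 3 of 21 against 8.78% of all genes upward. Ybx3 fell (−0.81), 1 of 21 against 5.92% of all genes downward. Patj went under the fold cutoff there (0.47) without Wnt5a + anti-Ptk7 replicate 1.

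All 16 adherens junction and desmosome genes were detected. In SCM 2 of 16 rose, Nectin4 (1.55) and Ctnnd1 (0.66), against 4.96% of all genes upward. In Wnt5a 9 of 16 rose, against 8.29%, with Nectin4 (2.53), Pkp1 (0.87), Ctnnd1 (0.84) and Dsc2 (0.78) the largest. Nectin4 lay at 0.952, 1.92 and 3.13 CPM in complete media and at 4.60, 12.8 and 17.5 CPM in Wnt5a + IgG, without overlap. Against QCM 10 of 16 rose in Wnt5a + anti-Ptk7, against 8.78% of all genes upward. Among them were Nectin4 (2.07), Cdh1 (0.95), Dsg2 (0.93) and Dsc2 (0.84). Nectin4 also rose against SCM + anti-Ptk7 (1.83), 1 of 16 against 1.28% of all genes upward. Without Wnt5a + anti-Ptk7 replicate 1 the 10 became 5. Nectin4 was lost in SCM without complete media replicates 3, 4 or 5 or SCM + IgG replicate 5 (edgeR adjusted p up to 0.0601), and against SCM + anti-Ptk7 without SCM + anti-Ptk7 replicate 4 or Wnt5a + anti-Ptk7 replicate 1 (up to 0.141). The median of the 16 genes in Wnt5a against complete media was 0.65, beside that of the 8 epithelial markers (0.56), a list that shares Cdh1 with it. Each count is read against the shares of all genes given above.

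**Figure D5:**
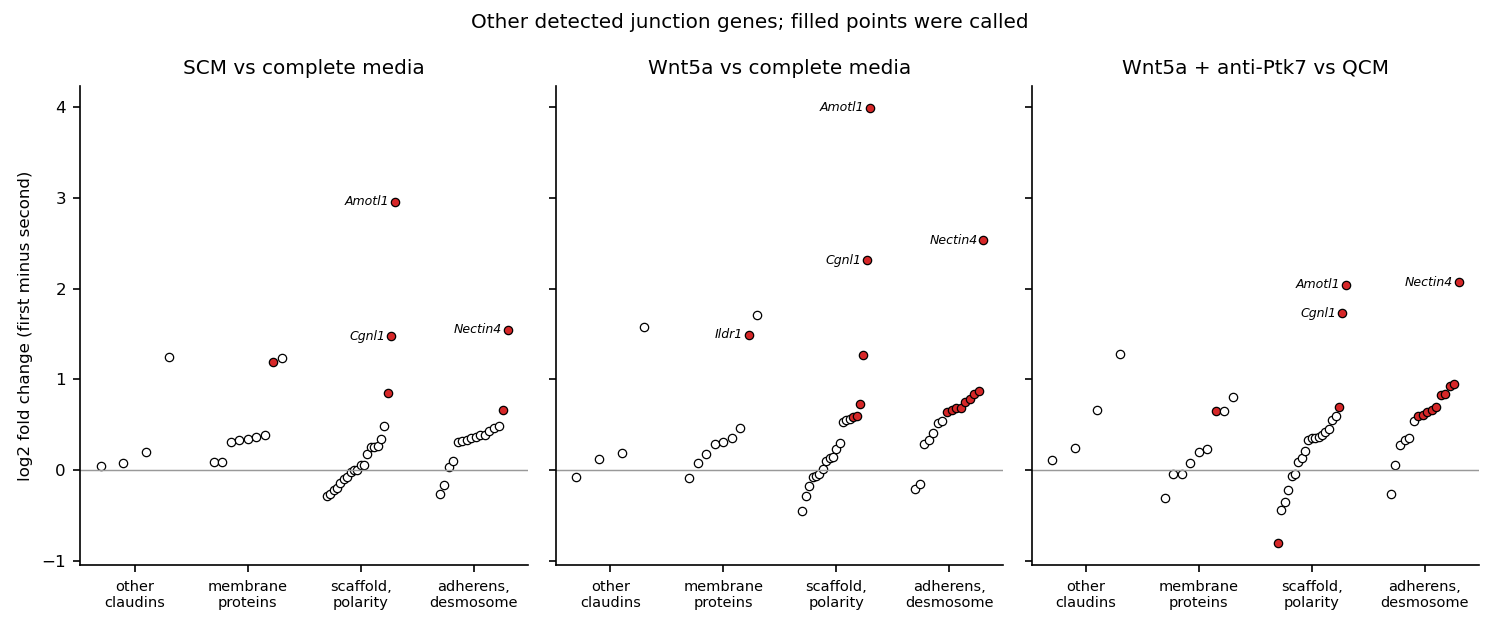
Log2 fold change (y axis) of the detected genes of the 4 other junction lists in SCM and in Wnt5a against complete media and in Wnt5a + anti-Ptk7 against QCM, 1 point per gene, filled where the gene passed. Amotl1 is the highest filled point in both panels against complete media (2.96 and 3.99), and Ybx3 (−0.81) is the only filled point below 0.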

How the data were processed

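RNA of 36 organoid libraries, 6 per condition, was analysed. The members of the list, the other gene lists and the motifs were chosen with earlier results of these data known. The authors ran HTSeqGenie with GSNAP on single-end reads, with NCBI Build 38 of the mouse as reference, and deposited whole-number counts per gene, without normalization, that the paper's methods describe as reads within coding sequences. The annotation and strand setting are not given in the sources used here. Symbols and positions came from GENCODE on GRCm38, in which 233 of 52636 identifiers lacked a symbol.

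edgeR 4.0.16 was the main tool, in R 4.3.3, beside DESeq2 1.42.0 and limma 3.58.1. Libraries were scaled by TMM (factors 0.908 to 1.03), and genes kept by filterByExpr were tested with glmQLFit and glmQLFTest in 1 model with 6 condition means, with Benjamini-Hochberg adjustment over 15497 genes. SEs are the log2 fold change divided by the root of F, and 95% intervals use the total degrees of freedom. Correlations are of log2 CPM (prior count 2). Of 127 junction and marker symbols on the lists, 125 matched an identifier. The others were Cldn25 and Pals1, a newer symbol of Mpp5, which was listed and analysed under that name. Genes named from the other lists are at most the 4 largest rises and 4 largest falls that passed per list and comparison, and those most like Jam2 are the 5 with the highest correlation, of which 1 is not reported here. Planned tests of Jam2 in Wnt5a + anti-Ptk7 were left out, since these libraries hold Wnt5a. Promoters are RefSeq sequences of GRCm38.p6. The scripts were tested on simulated data. Intervals and limits from counts cover counting error only, since reads were amplified without molecular identifiers.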

Additional observations from a re-analysis of the deposited data

Results flagged for a closer look

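In 5 of 60 sets of 6 libraries (10 genes in 6 conditions), 1 library stood apart from the other 5 by a gap above Dixon's 95% critical value for 6 values, where chance alone gives about 1 in 20. All 5 were replicate 1 libraries. Jam2 was at 9.32 CPM in SCM + anti-Ptk7 replicate 1, with the nearest library at 3.10 CPM. F11r was at 415 CPM in Wnt5a + IgG replicate 1, with the nearest at 320 CPM. Cldn23 was at 64.7 CPM in Wnt5a + IgG replicate 1 and at 58.1 CPM in Wnt5a + anti-Ptk7 replicate 1, with the nearest at 38.5 and 37.3 CPM. Ocln was at 365 CPM in Wnt5a + anti-Ptk7 replicate 1, with the nearest at 294 CPM.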

How the results depend on the processing

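Alternatives were glmTreat, DESeq2, voom with limma on TMM or quantile-normalized values, the replicate block, a fit of the compared groups alone, scaling by upper quartile or by library size alone, filters of none or of 10 counts per library, dropping the fold cutoff, and each library left out; leaving out replicate 1 in every condition was chosen after seeing the data. For QCM against complete media the count of genes that passed among the 9 became 1 (Cldn4) with the replicate block and with only the groups compared. For SCM it became 6 without a fold cutoff and 1 with glmTreat, and for Wnt5a 1 with glmTreat. For SCM against QCM it became 1 (Cldn4) with voom on quantile-normalized values, DESeq2, library size alone, the block, only the groups compared and without replicate 1, and ranged from 0 to 1 with each library left out. For anti-Ptk7 in Wnt5a it was 1 without a fold cutoff. For Wnt5a + anti-Ptk7 against QCM it was 1 with glmTreat, 2 without replicate 1 in every condition (F11r 0.54 and Tjp1 0.53 then missed the fold cutoff), and 2 to 4 with each library left out. Against SCM + anti-Ptk7 it was 1 with DESeq2, at least 10 counts, the block and no fold cutoff, and 0 to 1 with each library left out. Jam2 in SCM against QCM was 2.14 (edgeR adjusted p = 0.00118) with the block. Jam2 gave no value with at least 10 counts in every library. The cause was not tested.

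Some values that had not passed turned sign, most of them near 0, with Cldn4 for anti-Ptk7 in Wnt5a (0.33) the furthest from it. With voom on quantile-normalized values these were Cldn3 in QCM against complete media (−0.021), Cldn7 in Wnt5a against complete media (−0.10), Cldn3 (0.0094) and Cldn7 (−0.10) in SCM against QCM, and Cldn7 for anti-Ptk7 in SCM (0.0046). With library size alone they were Cldn3 in QCM (−0.00097) and Cldn7 for anti-Ptk7 in SCM (0.0076), and with no filter Cldn7 for anti-Ptk7 in Wnt5a (−0.0027). Without replicate 1 in every condition they were Tjp1 in QCM (0.00051), Cldn3 in SCM (0.0040), Ocln for anti-Ptk7 in SCM (−0.059), Cldn3 (−0.040) and Ocln (−0.010) for anti-Ptk7 in Wnt5a, and Cldn23 in Wnt5a against SCM (−0.031). With each library left out, in QCM Cldn3 ranged from −0.016 to 0.053 and Tjp1 from −0.10 to 0.033, and in SCM Cldn3 from −0.063 to 0.017. For anti-Ptk7 in SCM, Cldn7 ranged from −0.048 to 0.0083 and Ocln from −0.024 to 0.034. For anti-Ptk7 in Wnt5a, F11r ranged from −0.041 to 0.21, Cldn3 from −0.069 to 0.057, Cldn4 from −0.16 to 0.54, Cldn7 from −0.0081 to 0.021, Cldn23 from −0.30 to 0.15 and Ocln from −0.022 to 0.078. In Wnt5a against SCM, F11r ranged from −0.00088 to 0.17 and Cldn23 from −0.10 to 0.25.

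The replicate numbers were not taken as pairing the libraries, since the labels tie none to a mouse and not all same-number pairs correlated. Of 90 pairs with the same number, 34 had a correlation of their deviations over 0.1, and the lowest was −0.0442. Libraries did share more with their own number on average, at a mean of 0.092 against −0.018 for different numbers. Of 36 libraries, 16 were closest to their own number. What libraries of one number share was not tested. With the block, genes that passed over the whole table went from 58 to 178 in QCM against complete media, from 140 to 496 in SCM against QCM, from 190 to 399 and from 137 to 255 for anti-Ptk7 in SCM and in Wnt5a, from 107 to 259 in Wnt5a against SCM, and from 237 to 499 in Wnt5a + anti-Ptk7 against SCM + anti-Ptk7. DESeq2 passed 264 in SCM against QCM and 295 for anti-Ptk7 in SCM. Of 1385 alternative values of the genes named from the other lists, 1304 kept direction and call, 81 lost the call and 0 reversed. The levels moved by less than 1 SD under other scalings. By Spearman correlation 2 of the 5 genes most like Jam2 were shared, and 0 of 5 by deviations from the condition means.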
